A study of Mus musculus with 10 samples.

Results

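The E2F family and its DP partners were represented by 10 genes, E2f1 to E2f8, Tfdp1 and Tfdp2, chosen as the rows of the count table whose mouse Ensembl identifiers map to these symbols. Each symbol matched 1 of the 55573 genes in the table, and all 10 were among the 12772 genes that had enough reads to be tested. The rule matched gene names, and the family was picked with earlier results of these data known. The question put to the data was how activator and repressor E2Fs differ between B-cell progenitors called quiescent and those called proliferating.

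RNA sequencing was performed on 10 libraries of mouse bone marrow B-cells, 5 from cells with high H2B-GFP signal (GFP high, given the phenotype quiescent) and 5 from cells with low signal (GFP low, given the phenotype proliferating). Both groups carried the PAX5-ELN H2B-GFP genotype, received doxycycline and had the time 35 days, so the groups differ in GFP signal and in nothing else that the labels name. PAX5-ELN joins PAX5, the transcription factor of B-cell identity, to elastin, and H2B-GFP is a histone tagged with green fluorescent protein whose signal is diluted as cells divide. No group lacked PAX5-ELN or doxycycline, and neither the promoters that drive the transgenes nor the age of the mice is given in the sources used here. Nothing in the labels ties each library to an animal of its own. The p-values therefore measure only the spread between these samples, which may be technical. In bulk libraries such as these, fewer cells of a type and less RNA per cell cannot be told apart.

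E2F proteins bind promoters of genes for DNA replication and cell cycle entry. E2F1 to E2F6 bind DNA as heterodimers with a DP protein, whereas E2F7 and E2F8 bind without one. In the classical grouping E2F1, E2F2 and E2F3 are activators that the retinoblastoma protein RB holds inactive until cyclin-dependent kinases phosphorylate it. E2F4 and E2F5 act mostly as repressors with the RB relatives p107 and p130, and E2F6 represses with polycomb proteins, without any RB relative. The atypical E2F7 and E2F8 repress E2F targets later in S phase, and their own genes are E2F targets, as is E2f1. In B lymphocytes and other blood cells, loss of E2F1 and E2F2 is known to disturb the entry into and exit from the cell cycle.

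The core of the E2F recognition sequence was searched for at the promoters of the members, since several of these genes are themselves regulated by E2F. The letters searched were TTTCCCGC, TTTGGCGC, TTTCGCGC and TTTGCCGC on both strands, in the RefSeq promoters of build GRCm38.p6 (250 bases before to 50 after a start site). A shorter form of 7 letters drops the first T, and every match of 8 letters contains one of 7. Promoters were found for 8 of the 10 genes, all but E2f4 and E2f5. The 250 bases upstream of the start of 4 members are shown 5′ to 3′ on the gene's strand, because they hold the upstream matches and belong to genes that differed between the groups (E2f7, E2f8, Tfdp1) and to one that did not pass the test (E2f3). Capitals mark the matches in either orientation.
E2f7, chr10:110745189-110745438, plus strand: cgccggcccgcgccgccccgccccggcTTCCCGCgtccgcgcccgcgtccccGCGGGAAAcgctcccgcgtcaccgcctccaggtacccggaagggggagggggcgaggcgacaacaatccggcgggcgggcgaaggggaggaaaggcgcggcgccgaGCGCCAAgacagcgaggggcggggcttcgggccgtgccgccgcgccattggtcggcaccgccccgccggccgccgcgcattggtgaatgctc
E2f8, chr7:48881597-48881846, minus strand: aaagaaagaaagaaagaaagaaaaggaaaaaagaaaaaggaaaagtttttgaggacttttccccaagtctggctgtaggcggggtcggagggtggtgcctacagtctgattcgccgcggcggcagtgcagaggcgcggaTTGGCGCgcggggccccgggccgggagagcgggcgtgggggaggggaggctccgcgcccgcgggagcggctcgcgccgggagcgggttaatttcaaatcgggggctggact
Tfdp1, chr8:13338501-13338750, plus strand: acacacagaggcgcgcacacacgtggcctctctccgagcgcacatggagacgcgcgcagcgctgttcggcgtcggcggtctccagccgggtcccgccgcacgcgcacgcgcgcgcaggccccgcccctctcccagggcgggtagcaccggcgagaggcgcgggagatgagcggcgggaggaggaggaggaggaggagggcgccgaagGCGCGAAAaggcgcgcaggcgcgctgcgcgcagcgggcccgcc
E2f3, chr13:29986064-29986313, minus strand: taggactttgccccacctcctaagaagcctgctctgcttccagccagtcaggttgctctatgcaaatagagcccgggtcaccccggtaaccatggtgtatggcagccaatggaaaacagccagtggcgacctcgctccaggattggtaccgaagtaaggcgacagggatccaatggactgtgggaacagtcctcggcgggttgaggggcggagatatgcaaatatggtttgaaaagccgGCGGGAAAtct

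Counting negative numbers upstream from the start site, TTTCCCGC lay on the opposite strand at -198 to -191 in E2f7, with shorter matches at -223 to -217 and -92 to -86. In E2f8 only the shorter TTGGCGC was found, at -111 to -105. Tfdp1 held TTTCGCGC on the opposite strand at -43 to -36 of its first start, and E2f3 held TTTCCCGC on the opposite strand at -11 to -4 of its first start. E2f2 had a match of 8 letters, TTTGGCGC, 40 to 47 bases past its start. The 4 genes E2f2, E2f3, E2f7 and Tfdp1 therefore held the 8 letters, and with E2f8 5 genes held the 7 letters. By promoter this was 5 of 12 (41.7%) for 8 letters and 6 of 12 (50%) for 7 letters, beside 2.26% and 9.57% of the 32851 promoters in the table. The 2 Tfdp1 promoters start 53 bases apart and share 1 site, which is thus counted in both. Some promoters in the table start well inside the annotated gene. These are the only one of E2f1 (466 bases inside), the second of E2f3 (1672) and of E2f2 (8388), and both of Tfdp2 (62430 and 62973). The lack of a match for E2f1 therefore does not describe the bases before its annotated start. Of the 45 known E2F targets of G1/S listed further on, 37 had promoters in the table. Among these promoters, 17 of 44 (38.6%) held the 8 letters and 30 of 44 (68.2%) the 7 letters. A match is a description of the letters, and E2f3 held one without passing the test of expression.

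GFP high libraries held 11347097 to 13838769 counts each, and GFP low libraries 10640894 to 14858520. B-lineage genes were abundant in all 10 libraries: the 10 listed genes summed to 12640 to 14520 CPM (counts per gene scaled by library size) in the GFP high libraries and to 9767 to 11020 CPM in the GFP low libraries. Of these 10, 4 were higher in GFP high (Cd79a, Ebf1, Igll1 and Rag1) and 0 lower, against 12.0% and 15.4% of all genes. With the replicate number as a block 8 were higher, against 20.7% of all genes. Genes of T cells summed to at most 1.25 CPM, with Cd8a at 0. Neutrophil genes summed to 3.58 to 9.40 CPM in the GFP high libraries and to 2.81 to 6.50 CPM in the others. Some markers of other states did move with the groups: Jchain, a plasma cell gene, was 0.629 ± 0.408 CPM in GFP high but 56.7 ± 23.5 CPM in GFP low libraries (SD, n = 5). Csf1r, a monocyte gene, was 26.1 ± 4.24 and 5.92 ± 1.81 CPM. The full lists summed to 622 to 1095 CPM (GFP high) and 509 to 805.5 CPM (GFP low) for 6 plasma cell genes, of which 1 was lower and 2 higher. For 6 monocyte genes the sums were 78.6 to 121 and 45.1 to 86.1 CPM, with 1 higher, and for 8 erythroid genes 221.5 to 351 and 203 to 253 CPM, with 1 higher (Hbb-bs). For 6 stromal and endothelial genes they were 254 to 305 and 142 to 177.5 CPM, mostly from Pecam1, which was higher. With the block 4 plasma cell genes were higher and 1 lower, and 3 monocyte genes were higher, where 20.7% and 21.0% of all genes were higher and lower. The part of all these markers in the results was not tested. The proliferation marker Mki67 was at 178 ± 60.7 CPM in GFP high and 406 ± 135 in GFP low, a log2 fold change of -1.19 ± 0.27 (SE, edgeR adjusted p = 0.00664). Its groups overlapped, since GFP low library 4 (211 CPM) lay below GFP high libraries 2 and 3 (251 and 215 CPM). In 5 of 5 pairs of the same number GFP high was the lower library. The second principal component (20.5% of variance) separated libraries numbered 1 to 3 from those numbered 4 and 5 in both groups, so the values within these sets are given beside most members. Both libraries numbered 3 stood apart in genes of the Y chromosome, with 9 and 2 counts against 309 to 2654 in the other libraries. Without these 2 libraries 5 members were lower in GFP high and 0 higher, against 10.7% and 7.23% of all genes.

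In GFP high, 6 of the 10 genes were lower than in GFP low and 0 were higher, by edgeR's quasi-likelihood test with adjustment over all genes. Of all genes tested, 15.4% were lower, 12.0% higher and 27.5% called in either direction. The 6 were E2f1, E2f2, E2f6, E2f7, E2f8 and Tfdp1. E2f3, E2f4, E2f5 and Tfdp2 did not pass. At an unadjusted edgeR p under 0.05, 7 members were lower and 0 higher, where 2596 and 2402 of all 12772 genes were. DESeq2 and limma-voom also gave 0 higher, against 12.8% and 12.2% of all genes. The median log2 fold change of the 10 members was -0.46, against 0.03 over all genes. In E2f1, E2f2, E2f7, E2f8 and Tfdp1, every GFP high library lay below every GFP low library, which held for 12.6% of all genes tested. No member had every GFP high library above every GFP low library, a pattern of 7.92% of all genes. These 5 kept their call in all 21 alternative settings, whereas E2f6 lost it in 17 of 21.

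**Figure D1:**
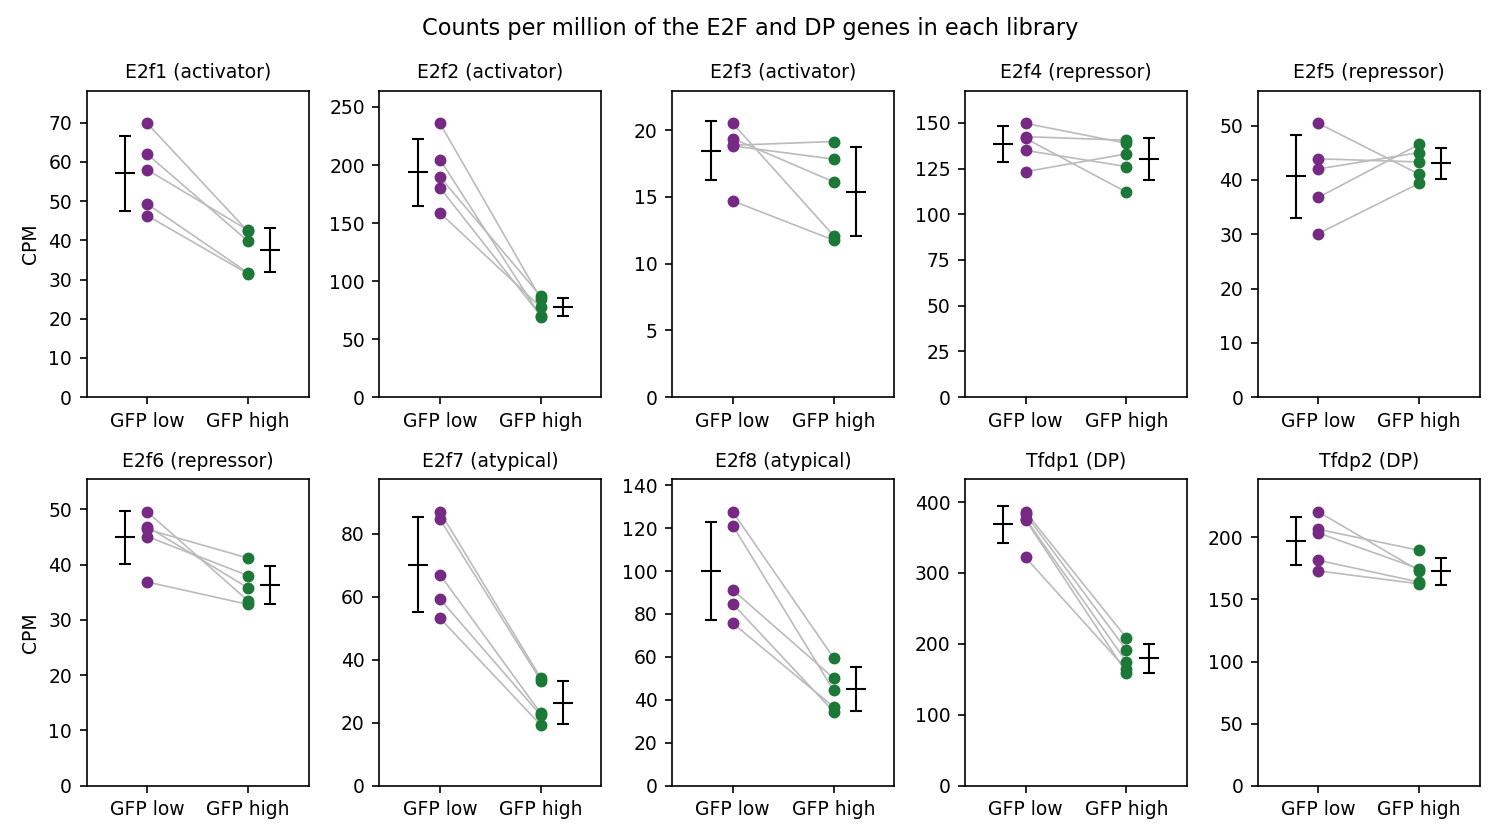
CPM (linear axis) of each E2F and DP gene in the 5 GFP high and the 5 GFP low libraries, with 1 point per library. Grey lines join libraries of the same number, and black marks beside the points give the group mean and SD. The groups are apart for E2f1, E2f2, E2f7, E2f8 and Tfdp1, and overlap for the other members.

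Among the activators, E2f2 showed the largest difference. E2f2 (ENSMUSG00000018983, chromosome 4, 136172394 to 136196057, plus strand, GRCm38) measured 77.4, 84.7, 69.4, 86.9 and 70.0 CPM in GFP high libraries 1 to 5. In GFP low libraries 1 to 5 it measured 159, 236, 205, 190 and 180 CPM. The highest GFP high library was thus well under the lowest GFP low library. Means were 77.7 ± 8.11 and 194 ± 28.8 CPM (SD, n = 5), with a log2 fold change of -1.32 ± 0.11 (SE, 95% interval -1.57 to -1.07, edgeR adjusted p = 1.38e-05). Within libraries 1 to 3 it was -1.35 and within libraries 4 and 5 it was -1.25.

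E2f1, the founding member and an activator that is also linked to apoptosis, differed less. E2f1 (ENSMUSG00000027490, chromosome 2, 154559407 to 154569892, minus strand) measured 42.6, 42.3, 39.8, 31.5 and 31.7 CPM in GFP high. In GFP low it measured 58.0, 69.8, 62.0, 46.3 and 49.3 CPM. The groups did not overlap, although in both of them libraries 4 and 5 were the lowest. This gave a log2 fold change of -0.60 ± 0.14 (SE, 95% interval -0.90 to -0.31, edgeR adjusted p = 0.00621), and it was -0.58 within libraries 1 to 3 and -0.61 within libraries 4 and 5.

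E2f3, the third activator, did not pass the test. E2f3 (ENSMUSG00000016477, chromosome 13, 29906575 to 29986063, minus strand) measured 12.1, 11.8, 16.1, 19.2 and 17.8 CPM in GFP high and 20.5, 14.7, 19.4, 18.9 and 18.8 CPM in GFP low. The groups overlapped, with libraries 1 and 2 of GFP high under all others. Its log2 fold change was -0.26 ± 0.17 (SE, 95% interval -0.63 to 0.10, edgeR adjusted p = 0.276), an interval that reaches into the range of E2f1. It was -0.42 within libraries 1 to 3 and -0.04 within libraries 4 and 5 (adjusted p 0.186 and 0.896). E2f3 encodes a longer and a shorter protein from separate start sites, which counts per gene cannot separate.

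Among the repressors, E2f4 and E2f5 gave no call. E2f4 (ENSMUSG00000014859, chromosome 8, 105297663 to 105305370, plus strand), the main E2F of resting cells, measured 133, 112, 126, 141 and 139 CPM in GFP high and 123, 142, 135, 142 and 150 CPM in GFP low. The groups overlapped over most of their range. The log2 fold change was -0.09 ± 0.09 (SE, 95% interval -0.27 to 0.10, edgeR adjusted p = 0.475), so the interval leaves out falls of the size seen for E2f1.

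E2f5 (ENSMUSG00000027552, chromosome 3, 14578641 to 14606309, plus strand), a close relative of E2f4, measured 41.0, 43.3, 45.0, 46.6 and 39.4 CPM in GFP high and 50.4, 43.9, 42.0, 36.8 and 30.1 CPM in GFP low. GFP low spread more widely than GFP high and enclosed it. The log2 fold change of 0.08 ± 0.13 (SE, 95% interval -0.20 to 0.36, edgeR adjusted p = 0.675) had no stable direction: it was -0.05 within libraries 1 to 3 and 0.35 within libraries 4 and 5 (adjusted p 0.798 and 0.154).

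E2f6 (ENSMUSG00000057469, chromosome 12, 16810963 to 16839742, plus strand), the polycomb-linked repressor, measured 32.8, 33.5, 35.8, 41.2 and 38.0 CPM in GFP high and 36.9, 49.6, 46.9, 46.4 and 45.1 CPM in GFP low. GFP low library 1 lay inside the GFP high range, and GFP high was the lower library in 5 of 5 pairs of the same number. In the test E2f6 had a log2 fold change of -0.31 ± 0.11 (SE, 95% interval -0.54 to -0.08, edgeR adjusted p = 0.0484). The adjusted p ran from 0.0157 to 0.267 over the alternatives and missed the threshold with DESeq2 (0.0517), so this call is the least secure of the 6. With the replicate number as a block E2f6 passed (edgeR adjusted p = 0.018). Its value in libraries 1 to 3 was -0.36 and in libraries 4 and 5 it was -0.22, with adjusted p 0.0979 and 0.267.

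The atypical E2f7 and E2f8 were both lower in GFP high. E2f7 (ENSMUSG00000020185, chromosome 10, 110745439 to 110787384, plus strand) measured 23.0, 34.2, 33.4, 19.2 and 22.3 CPM in GFP high and 67.1, 87.0, 84.6, 53.2 and 59.3 CPM in GFP low. No libraries of the groups overlapped. The log2 fold change of -1.41 ± 0.19 (SE, 95% interval -1.82 to -0.997, edgeR adjusted p = 0.000225) was the lowest of the 10 members, with an interval that overlaps those of E2f2, E2f8 and Tfdp1. Within libraries 1 to 3 E2f7 gave -1.37 and within libraries 4 and 5 -1.45.

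E2f8 (ENSMUSG00000046179, chromosome 7, 48866429 to 48881596, minus strand), which acts together with E2f7, measured 50.1, 44.4, 59.6, 36.7 and 34.5 CPM in GFP high. In GFP low it measured 91.2, 121, 128, 75.7 and 84.7 CPM. The groups were again apart, with libraries 4 and 5 the lowest in each. The log2 fold change was -1.15 ± 0.18 (SE, 95% interval -1.54 to -0.76, edgeR adjusted p = 0.000595). On the opposite strand Gm2788 shares 610 exonic bases (11.2%) with E2f8, and since no strand setting is known, reads there cannot be assigned. Counts of Gm2788 were 10 to 33 in each GFP high library and 34 to 63 in each GFP low library.

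Of the DP partners, Tfdp1 passed the test, and Tfdp2 passed it only with the replicate block described below. Tfdp1 (ENSMUSG00000038482, chromosome 8, 13338751 to 13378448, plus strand), which encodes DP1, measured 164, 175, 159, 192 and 209 CPM in GFP high. In GFP low it measured 322, 377, 375, 383 and 386 CPM. The highest GFP high value lay far below the lowest GFP low value, which came from library 1. The means were 180 ± 20.3 and 369 ± 26.4 CPM (SD, n = 5), with a log2 fold change of -1.04 ± 0.09 (SE, 95% interval -1.24 to -0.84, edgeR adjusted p = 1.42e-05).

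Tfdp2 (ENSMUSG00000032411, chromosome 9, 96196275 to 96323646, plus strand), which encodes DP2, measured 173, 175, 163, 190 and 164 CPM in GFP high and 221, 204, 173, 207 and 182 CPM in GFP low. The groups overlapped, but GFP high was lower in 5 of 5 pairs of the same number. For Tfdp2 the log2 fold change was -0.19 ± 0.09 (SE, 95% interval -0.38 to -0.00) with an edgeR adjusted p of 0.12. With the replicate number as a block the same value of -0.19 passed (edgeR adjusted p = 0.0282), as 21.0% of all genes did in this direction, and 7 members were then lower. The interval of Tfdp2 did not reach that of Tfdp1.

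**Figure D2:**
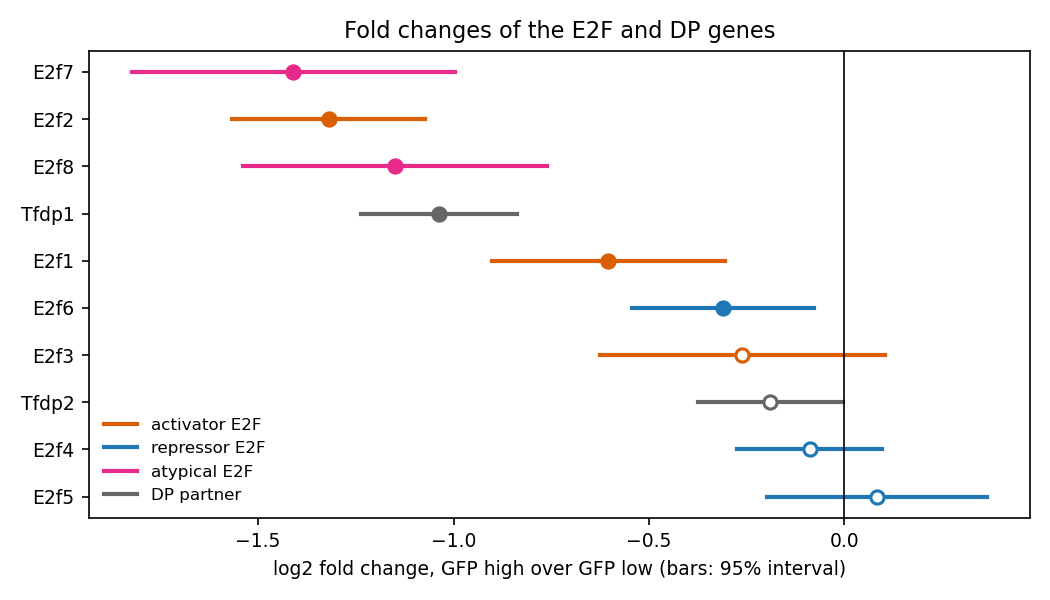
Log2 fold change of each member, GFP high over GFP low, with 95% intervals; filled points passed the adjusted threshold of 0.05 and open points did not. E2f7, E2f2, E2f8 and Tfdp1 lie at or below -1.04, E2f1 and E2f6 between -0.60 and -0.31, and the remaining members at -0.26 or above.

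To compare levels between genes, CPM was divided by exonic length in kilobases (CPM per kb, over the union of exons). In GFP high the order was E2f4 (53.1 ± 4.71), Tfdp1 (48.9 ± 5.54), E2f5 (24.2 ± 1.63), E2f2 (15.9 ± 1.66), Tfdp2 (12.3), E2f1 (11.9), E2f8 (8.27), E2f6 (6.40), E2f7 (2.93) and E2f3 (2.84). Neighbours whose libraries overlapped were E2f4 with Tfdp1, Tfdp2 with E2f1, E2f1 with E2f8, E2f8 with E2f6, and E2f7 with E2f3. In GFP low the order was Tfdp1 (100.4), E2f4 (56.4), E2f2 (39.7), E2f5 (22.8), E2f8 (18.4), E2f1 (18.1), Tfdp2 (14.1), E2f6 (7.94), E2f7 (7.80) and E2f3 (3.40). Here E2f5 with E2f8, E2f8 with E2f1, E2f1 with Tfdp2, and E2f6 with E2f7 overlapped. So E2f4 was the E2F with the highest level in both groups, E2f2 was the activator with the highest level in both, and E2f2 stood below E2f5 in GFP high and above it in GFP low. Measured per kb of the longest coding transcript, Tfdp1 (71.5) stood above E2f4 (65.3) also in GFP high, while E2f2 and E2f5 kept their positions relative to each other. Tfdp2 and E2f6 moved most with this length, to means of 23.5 and 14.99 in the GFP high libraries and of 26.8 and 18.6 in the GFP low libraries. In GFP high this put the mean of Tfdp2 above that of E2f2, and the mean of E2f6 above those of E2f1 and E2f8. E2f7 moved to 4.83 and 12.8.

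Summed per length over the 8 E2Fs, the balance of the classes differed between the groups. The activators E2f1, E2f2 and E2f3 made up 24.5% ± 1.78 of the summed E2F level in GFP high (22.7% to 27.3%) and 35.0% ± 1.48 in GFP low (33.4% to 37.3%; SD, n = 5). The repressors E2f4, E2f5 and E2f6 made up 66.6% ± 3.02 (62.9% to 70.1%) and 50.2% ± 3.17 (46.4% to 53.1%). The atypical E2f7 and E2f8 made up 8.94% ± 1.95 (6.78% to 11.5%) and 14.9% ± 2.23 (12.1% to 17.8%). In none of the 3 classes did the libraries of the groups overlap. The change in share came with an activator sum of 30.7 CPM per kb in GFP high against 61.2 in GFP low. Most of that gap lay in E2f2 (15.9 and 39.7), with E2f1 at 11.9 and 18.1 and E2f3 at 2.84 and 3.40. The atypical sums were 11.2 and 26.2, while the repressor sums were 83.6 and 87.2. The log2 ratio of activator to repressor level was -1.45 ± 0.16 in GFP high and -0.52 ± 0.14 in GFP low. With the longest coding transcript as length, activators were 21.4% and 30.1% and repressors 67.6% and 51.5%, also without overlap. These shares are descriptions of RNA and carry no test, since they sum members that were chosen with earlier results known.

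**Figure D3:**
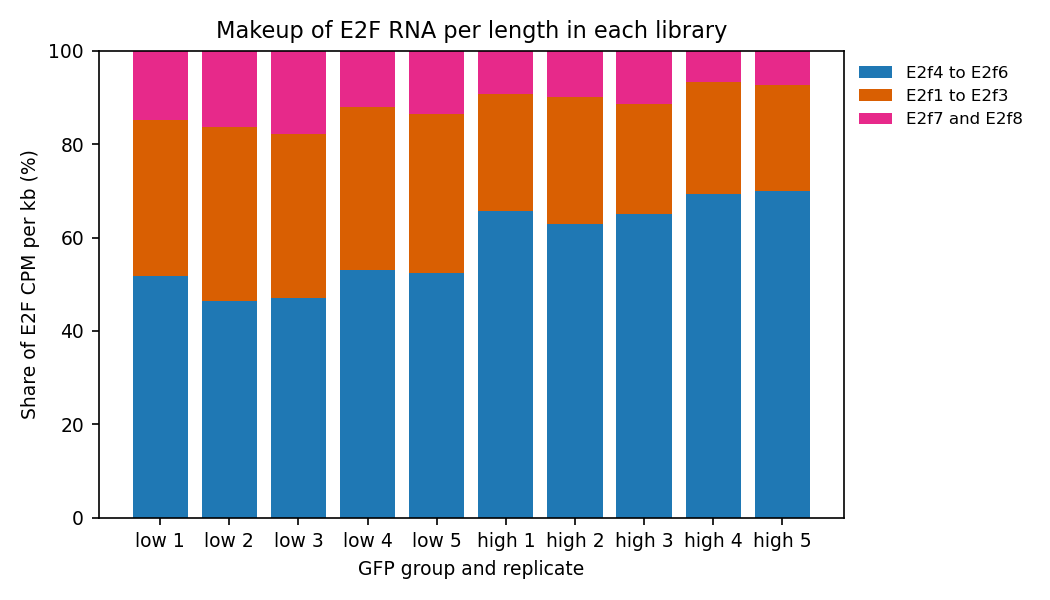
Share of the summed E2F level (CPM per kb, percent) held by activator, repressor and atypical E2Fs, as a stacked bar for each library. Activator shares run from 22.7% to 27.3% in GFP high but from 33.4% to 37.3% in GFP low, and repressor shares are at 62.9% to 70.1% and 46.4% to 53.1%.

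Within the DP pair, the ratio of Tfdp2 to Tfdp1 per length averaged 0.254 in the GFP high libraries (0.206 to 0.276) but 0.141 in the GFP low libraries (0.121 to 0.179), so Tfdp1 was the more abundant partner per length in every library. The ratio of E2f7 to E2f8 per length was 0.358 (0.277 to 0.465) and 0.425 (0.401 to 0.444), and the groups overlapped.

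Of 11 genes for pocket proteins and for MuvB, the core of the DREAM complex, with its partners, 4 were lower (36.4%, against 15.4% of all genes), 2 higher (18.2%, against 12.0%) and 5 did not pass. The median log2 fold change was -0.21. With the block 5 were lower and 3 higher, the added ones being Rb1 and Rbl2 (all genes: 21.0% and 20.7%). Mybl2 (-0.97 ± 0.10), Foxm1 (-0.98 ± 0.20) and Rbbp4 (-0.49 ± 0.10) fell, as did Rbl1 (-0.51 ± 0.10), which encodes p107, with edgeR adjusted p of 3.45e-05, 0.00298, 0.00262 and 0.00295. Mybl2 and Foxm1 encode the cell cycle transcription factors that join MuvB in S phase and G2, and Foxm1 is named after its value was seen. Lin52 (0.46 ± 0.10, adjusted p = 0.00543) and Lin37 (0.45 ± 0.14, adjusted p = 0.0301), both subunits of the MuvB core, rose. Lin37 lost this call in 7 of 21 alternatives.

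Rb1 and Rbl2, for RB and p130, did not pass over the 10 libraries without a block. Rb1 was at 185 ± 29.6 CPM in GFP high and 218 ± 30.5 in GFP low, a log2 fold change of -0.24 ± 0.13 (edgeR adjusted p = 0.187, and 0.00753 with the replicate block). Rbl2, which encodes p130, the pocket protein typical of resting cells, was at 108 ± 22.6 and 82.9 ± 16.7 CPM, a log2 fold change of 0.38 ± 0.16 (edgeR adjusted p = 0.0982). With the block its adjusted p was 0.000397, and it also passed within libraries 1 to 3 (0.40, adjusted p = 0.0218) and within libraries 4 and 5 (0.38, adjusted p = 0.0155). Rbl2 and Rbl1 thus had values of opposite sign.

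G1 cyclins, cyclin-dependent kinases and their inhibitors set the phosphorylation of RB, and the list of 16 such genes also held Cdc25a. Of the 16, 7 were lower (43.8%, against 15.4% of all genes), 2 higher (12.5%, near the 12.0% of all genes) and 7 did not pass, with a median of -0.38. With the block 9 were lower and 5 higher, where 21.0% and 20.7% of all genes were. The E-type cyclins fell: Ccne2 had a log2 fold change of -1.65 ± 0.11 (43.0 ± 3.37 against 135 ± 21.0 CPM) and Ccne1 of -1.40 ± 0.27, with edgeR adjusted p of 6.18e-06 and 0.00238. Cdk4 (-0.60 ± 0.10) and the inhibitor gene Cdkn2d (-0.59 ± 0.10) were also lower. Ccnd2, a D-type cyclin, was higher, at 629 ± 226 CPM in GFP high and 163 ± 91.2 in GFP low, a log2 fold change of 1.95 ± 0.36 (edgeR adjusted p = 0.00189). Cdk6 was higher by 0.42 ± 0.13 (adjusted p = 0.0268), a call lost in 5 of 21 alternatives.

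All 7 genes of the E2F turnover and feedback list were lower in GFP high, against 15.4% of all genes (median -1.10 on the log2 scale). Skp2, the F-box protein that targets E2F1 and p27, was at 21.0 ± 1.13 CPM in GFP high against 47.0 ± 3.51 CPM in GFP low (log2 fold change -1.16 ± 0.10). Ccna2, whose cyclin binds E2F1, fell by 1.25 on the log2 scale, and Cks1b, the partner of Skp2, fell by 1.05. Their edgeR adjusted p were 1.20e-05, 1.42e-05 and 1.83e-05.

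Of 45 known E2F targets of G1/S, which encode replication and nucleotide synthesis proteins, 42 were lower and 0 higher (93.3% against the 15.4% of all genes), with a median log2 fold change of -0.89. At an unadjusted edgeR p under 0.05, 44 were lower and 0 higher, where 2596 and 2402 of all 12772 genes were. Lowest in p were Chaf1b, a histone chaperone of replication, at 82.0 ± 6.01 against 186 ± 17.1 CPM (-1.18 ± 0.09), and Rrm2, of ribonucleotide reductase, at 382 ± 22.9 against 848 ± 94.7 CPM (-1.15 ± 0.09). Tk1, thymidine kinase, was at 46.9 ± 1.51 against 102 ± 10.4 CPM (-1.12 ± 0.09). Their edgeR adjusted p were 6.95e-06, 6.95e-06 and 7.32e-06. The 3 targets that did not pass were Cdt1 (-0.31), Brca2 (-0.44) and Fen1 (-0.50), named here after their values were seen. Fen1 had a low level, at 4.17 ± 0.77 CPM in GFP high and 5.89 ± 0.92 in GFP low. With the replicate block 44 of 45 were lower, since Cdt1 and Brca2 then passed (edgeR adjusted p = 0.0123 and 0.0122) and Fen1 did not (0.115).

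Of 12 genes for E2F6 partners in the polycomb complex PRC1.6, 4 were lower (33.3%, against 15.4% of all genes), 3 higher (25%, against 12.0%) and 5 did not pass, with a median of -0.19. With the block 6 were lower and 4 higher, where 21.0% and 20.7% of all genes were. Cbx3, a heterochromatin protein, fell by 0.83 on the log2 scale and Hdac2, a deacetylase, by 0.52, with edgeR adjusted p of 0.000159 and 0.000363. Max (0.37), Ring1 (0.43) and Mga (0.37), which encode the DNA-binding pair and a ubiquitin ligase of the complex, rose with adjusted p of 0.00712, 0.00966 and 0.0333. These calls were lost in 1, 3 and 6 of 21 alternatives. Of 12 germline genes that this complex is known to silence, 11 had too few reads to be tested, and the remaining one, Stag3, was at 3.70 ± 2.42 and 4.05 ± 2.06 CPM (edgeR adjusted p = 0.868). Tuba3a, Tex101, Mael and Meikin were at 0 in all 10 libraries.

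**Figure D4:**
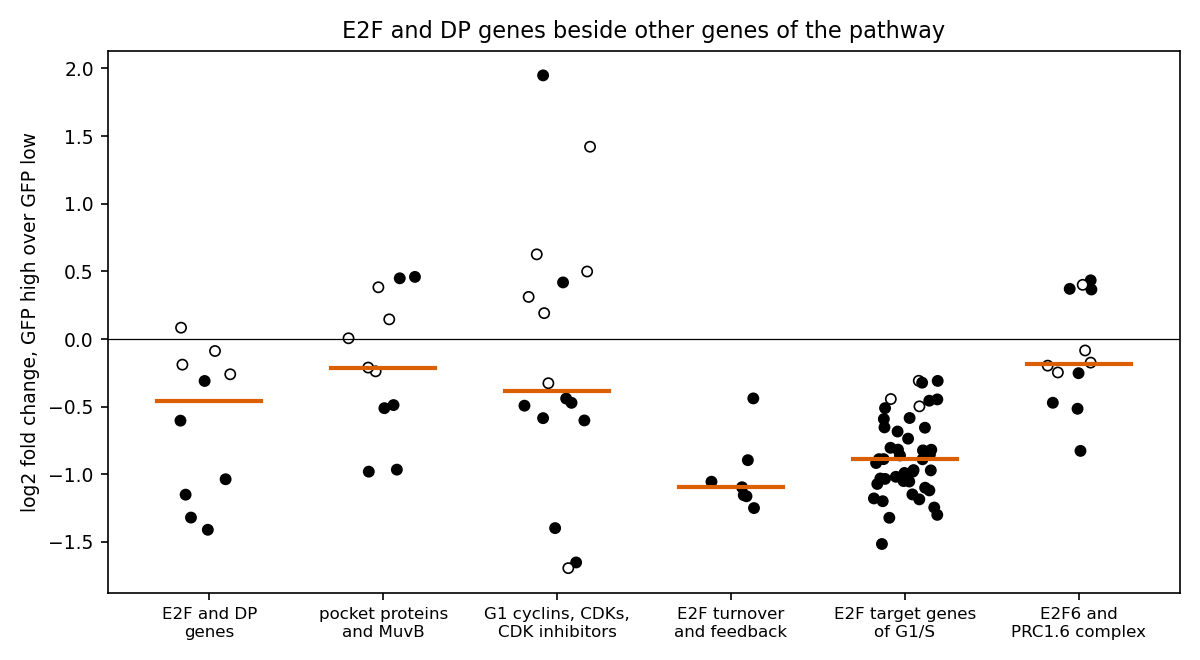
Log2 fold change, GFP high over GFP low, of each tested gene in the lists around the E2Fs, with an orange bar at the list median; filled points passed the adjusted threshold and open points did not. The medians lie at -1.10 for turnover and feedback, -0.89 for G1/S targets, -0.38 for G1 regulators, -0.21 for pocket proteins and MuvB and -0.19 for PRC1.6.

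The genes most like each member were taken by the smallest root mean square distance between centred log2 CPM profiles over the 10 libraries. For E2f1 they were Ezh2 (0.0768), Ndc80 (0.0809) and Smc3 (0.0950), and for E2f2 they were Lockd (0.0944), Pclaf (0.112) and Shcbp1 (0.133). Nearest to E2f7 were Neil3 (0.180), Kif18b (0.194) and Depdc1a (0.197), and nearest to E2f8 were Gmnn (0.139), Noct (0.165) and Orc6 (0.171). Tfdp1 lay nearest to Nuf2 (0.0791), Mad2l1 (0.0814) and Rrm2 (0.0884), and E2f6 to Oas1a (0.0480), Asna1 (0.0588) and Prim2 (0.0684). The 12 genes nearest to the 4 members that did not pass had distances of 0.0361 to 0.146, and none of them passed the test. None of the 3 nearest to E2f6 passed either, with edgeR adjusted p of 0.0584 for Oas1a, 0.152 for Asna1 and 0.123 for Prim2. Over the 21 alternatives Oas1a passed in 3, Asna1 in 1 and Prim2 in 2. These profiles were picked for their likeness, so their calls are a description.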

How the data were processed

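The table deposited by the authors gives raw counts of reads for each gene, with no normalization, in 10 libraries of polyadenylated RNA amplified with a kit for very small amounts, per the labels' protocols. Genome build mm10, STAR, featureCounts and DESeq2 are named, with no role or version, per the submitters' processing notes. Strand setting and treatment of reads with several matches are not given in the sources used here. Symbols and positions came from GENCODE M21 (GRCm38), which matched 99.833% of the identifiers, and promoters from RefSeq.

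Genes were kept by filterByExpr, scaled by TMM and tested with edgeR 4.0.16 in R 4.3.3 (quasi-likelihood test, GFP high against GFP low, no covariate, Benjamini-Hochberg over 12772 genes, threshold 0.05). CPM used the counts of tested genes times the TMM factor as library size, in which 3 counts corresponded to 0.203 to 0.291 CPM. Standard errors are the log2 fold change over the square root of its F value, and 95% intervals follow from them. The fit was tested on simulated data. Alternatives used DESeq2 1.42.0, limma-voom (limma 3.58.1), other scalings and filters, subsets of libraries and a replicate block.

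The labels share replicate numbers 1 to 5 between the groups. Same-numbered libraries correlated at 0.248 to 0.353 in their deviations from the group means, each best with its own number. For numbers 4 and 5 the margin was narrow, at 0.349 and 0.353 against 0.321 for the best other number. The numbers were taken to pair the samples. This rests on the data, since the labels do not state what a number marks. Blocked values stand beside the calls named in the text that they change, except for the genes nearest in profile.

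No pair of replicates agreed within sampling noise. All members were named. From each list the 3 genes with the lowest p were named, with up to 3 called genes of the opposite direction, Rb1, Rbl1, Rbl2, Ccne1, Ccne2 and Mki67, and the 3 profiles nearest to each member. Foxm1, Cdt1, Brca2, Fen1 and the cell type markers named were chosen after their values were seen. For members that did not pass, those profiles are given as a range. The members and lists were chosen with earlier results of these data known.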

Additional observations from a re-analysis of the deposited data

Results flagged for a closer look

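Tfdp1 in GFP low library 1 measured 321.9 CPM, apart from the other 4 GFP low libraries. Its gap to the nearest of them was 0.828 of the group's range, above the critical value of 0.71. Of 20 groups of 5 libraries examined (10 genes in each of the 2 groups), 1 was singled out in this way, and chance alone singles out about 1 in 20. The value lay toward GFP high but above every GFP high library.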

How the results depend on the processing

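The number of members lower in GFP high ran from 5 to 7 over the alternatives, and that of G1/S targets from 39 to 44. Log2 fold changes ran from -1.39 to -1.24 for E2f2, -0.66 to -0.51 for E2f1, -1.51 to -1.30 for E2f7, -1.27 to -1.04 for E2f8 and -1.09 to -0.96 for Tfdp1. With the replicate block 7 members were lower, and over all genes 2688 were lower and 2645 higher, against 1973 and 1538 without it. Without both libraries numbered 3, 926 genes were higher. E2f5 turned to -0.051 in libraries 1 to 3 alone, and Stag3 ran from -0.52 to 0.087 when 1 library was left out. The cause was not tested. With 5 libraries a group, the 95% intervals of E2f3, E2f4 and E2f5 each held both a fall and a rise.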

Other observations

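The members differed in how libraries 4 and 5 stood against libraries 1 to 3, a pattern noticed after the values were seen and given without a test. E2f1, E2f7 and E2f8 had their lowest values of both groups in libraries 4 and 5. E2f8, for example, averaged 51.3 CPM in GFP high libraries 1 to 3 and 35.6 CPM in libraries 4 and 5, while in GFP low it averaged 113 and 80.2 CPM. E2f4 and Tfdp1 had their highest values of both groups there: Tfdp1 averaged 166 and 200 CPM in GFP high, then 358 and 385 CPM in GFP low. The labels name nothing that sets these libraries apart.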
